A study of Mus musculus with 8 samples.

Results

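The glypican and syndecan genes encode the 2 families of heparan sulfate proteoglycans that sit on the cell surface, and 10 of them were followed in whole mouse embryos at embryonic day 6.5. They were taken by gene symbol from a table of 19950 genes: the 6 glypicans Gpc1 to Gpc6 and the 4 syndecans Sdc1 to Sdc4, all of which were listed. Bulk RNA sequencing compared 4 embryos mutant for both Axin1 and Axin2 with 4 WT embryos, numbered 1, 2, 4 and 5 in each genotype after the column names. The alleles, the strain and the litter of each embryo are not stated in the labels, so the p-values speak only for the variation among these 8 embryos. Axin1 and Axin2 are scaffolds of the complex that targets β-catenin for destruction, and the series asks how their loss alters WNT signalling and mesoderm.

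Glypicans are anchored to the outer face of the cell membrane by a glycolipid, and syndecans cross the membrane and end in a short cytoplasmic tail. Both carry heparan sulfate, a long sulfated sugar chain that holds WNT, FGF, BMP and Hedgehog ligands at the cell surface and assists their receptors. Loss of the enzyme that polymerises the chain stops mouse development at gastrulation, the stage sampled here.

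Values are "scaled counts", reads per gene adjusted by the authors for library size, as mean ± SD over the 4 embryos of a genotype. Reads in genes ranged from 27242668 to 34271604 in mutant libraries and from 26615732 to 36778164 in WT libraries, so counting error was small for every member but Gpc5. Axin1 had 1721, 1985, 2203 and 2074 scaled counts in mutants 1, 2, 4 and 5, against 5274, 5140, 2963 and 4884 in WT 1, 2, 4 and 5. It was lower in the mutants (log2 fold change -1.16 with SE 0.18; adjusted p = 0.00269 by limma). Axin2, itself a WNT target, had 370.5 ± 113 scaled counts in mutants and 266 ± 32.6 in WT and did not pass (limma adjusted p = 0.19); counts over a whole gene do not show which exons were read. All 4 mutant libraries and WT 1 and 4 held Y-linked transcripts (a summed scaled count of at least 5244), whereas WT 2 and 5 held at most 14.2; the first 6 are called the Y-bearing libraries.

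Syndecan and glypican genes changed in both directions. Of the 9 members that passed the filter on low values (4 or more libraries at 10 scaled counts or above), Sdc3, Gpc6 and Gpc1 were higher in the mutants and Sdc2 was lower at an adjusted p under 0.05. Among all 15600 genes tested, 15.6% were called (8.03% higher and 7.55% lower). The median log2 fold change of the 9 members was 0.07, against -0.002 over all genes tested. The mutant and WT values of 5 of the 9 did not overlap, namely Gpc1, Gpc3, Gpc6, Sdc2 and Sdc3, whereas 22.4% of all tested genes were without overlap. In whole embryos a lower value can mean fewer cells of a type or less RNA per cell, and these cannot be told apart.

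**Figure D1:**
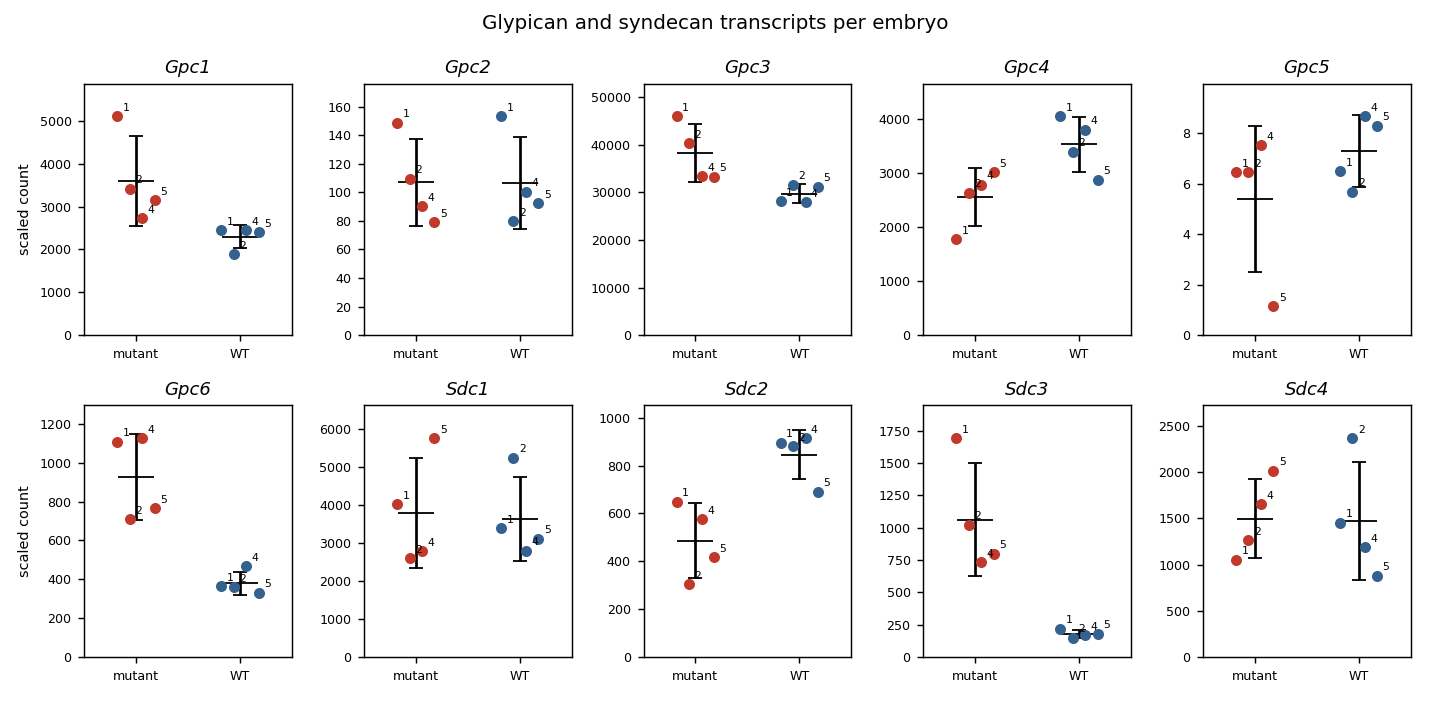
Scaled counts (vertical axes, each from 0) of the 10 members in each embryo, mutants in red and WT in blue, numbered by replicate, with black bars for the mean ± SD of 4. The 4 mutant values of Sdc3 (733 to 1693) all lie above the WT values (148 to 219), those of Sdc2 (303 to 650) all lie below (691 to 915), and those of Sdc1 and Sdc4 overlap.

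Sdc3, the syndecan best known from the nervous system, had the largest change of the 9. It had 1693, 1022, 733 and 798 scaled counts in mutants 1, 2, 4 and 5, against 219, 148, 167 and 179 in WT 1, 2, 4 and 5. Every mutant value lay far above the highest WT value, and mutant 1 stood highest. The rise was 5.66-fold on the log2(value + 1) scale (log2 fold change 2.50 with SE 0.26; adjusted p = 0.000386 by limma). The call held in all 21 alternatives, with log2 fold changes from 2.25 to 3.06. The gene (ENSMUSG00000025743.14) lies on chromosome 4, from 130792537 to 130826319 (plus strand, GRCm38). Over 463 bases its exons overlap the antisense genes Gm12970 and Gm26716, and the library kit does not keep strand, so reads there cannot be told apart.

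The upstream sequences of Sdc3, which changed most, and of Gpc3, the most abundant member, are printed as the stretches next to the transcription start. They come from RefSeq on GRCm38.p6, chr4:130792287-130792536 on the plus strand and chrX:52613975-52614224 on the minus strand, each the 250 bases before the start, 5′ to 3′; capitals would mark a match to the motifs named below, and neither stretch has one.
Sdc3: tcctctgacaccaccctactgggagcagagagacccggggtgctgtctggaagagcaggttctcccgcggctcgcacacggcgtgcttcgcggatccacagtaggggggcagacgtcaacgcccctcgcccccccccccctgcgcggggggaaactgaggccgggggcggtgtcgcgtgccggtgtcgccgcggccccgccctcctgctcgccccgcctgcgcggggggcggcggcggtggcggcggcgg
Gpc3: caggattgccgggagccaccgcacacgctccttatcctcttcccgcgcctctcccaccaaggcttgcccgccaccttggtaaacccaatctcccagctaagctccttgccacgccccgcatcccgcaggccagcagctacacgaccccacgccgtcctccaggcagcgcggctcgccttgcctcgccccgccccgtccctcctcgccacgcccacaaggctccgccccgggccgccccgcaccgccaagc

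Both stretches were rich in CG pairs. The Sdc3 stretch held 76.4% G and C with 32 CG pairs and the Gpc3 stretch 71.6% with 25, against medians of 52.4% and 6 over 32851 promoters. Promoters of 7 of the 10 members were matched: Gpc2, Gpc3, Gpc4, Gpc5, Sdc1, Sdc3 and Sdc4. The TCF/LEF-type motifs CTTTGAT and CTTTGAA were searched on both strands from 250 bases before to 50 after the start. None of the 7 windows held either, and 8.65% of all promoters held at least 1. That says only that these letters are not in these windows.

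Sdc2, a syndecan of mesenchymal cells that in frog embryos acts in left-right patterning, was lower in the mutants, and with limma it was the 1 member of the 9 called lower; Gpc4, described further on, had a negative log2 fold change too and was called lower with median centring and with DESeq2. It had 650, 303, 575 and 417 scaled counts in mutants 1, 2, 4 and 5, against 896, 882, 915 and 691 in WT 1, 2, 4 and 5. All mutants lay below all WT embryos, and WT 5 was well below the other WT embryos. The decrease was 1.80-fold (log2 fold change -0.85 with SE 0.23; adjusted p = 0.0348 by limma). The call was lost without mutant 5 or WT 1, 2 or 4 (adjusted p 0.0776 to 0.0915) and in the 6 Y-bearing libraries (0.117), and the log2 fold change stayed between -1.39 and -0.64 over all alternatives. The gene (ENSMUSG00000022261.5) lies on chromosome 15, 32920723 to 33034935.

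Sdc1, the main syndecan of epithelia, and Sdc4, a syndecan of focal adhesions, did not pass. Sdc1 had 4023, 2601, 2781 and 5766 scaled counts in mutants 1, 2, 4 and 5, against 3387, 5250, 2803 and 3118 in WT 1, 2, 4 and 5. Sdc4 had 1054, 1263, 1652 and 2015 in mutants 1, 2, 4 and 5, against 1454, 2369, 1190 and 881 in WT 1, 2, 4 and 5. The embryos of each genotype differed widely from each other, with WT 2 the highest WT embryo and mutant 5 the highest mutant for both genes. The log2 fold change was 0.03 for Sdc1 (95% interval -0.58 to 0.64, limma adjusted p = 0.962) and 0.07 for Sdc4 (95% interval -0.60 to 0.75, limma adjusted p = 0.902). Both intervals hold modest changes either way, and both signs turn with median centring (log2 fold changes -0.06 and -0.01).

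Gpc6, whose human counterpart is mutated in the skeletal disorder omodysplasia, was raised in every mutant. It had 1110, 709, 1127 and 766 scaled counts in mutants 1, 2, 4 and 5, against 364, 359, 467 and 330 in WT 1, 2, 4 and 5. The lowest mutant was well above the highest WT embryo, and mutants 1 and 4 stood above mutants 2 and 5. The rise was 2.41-fold (log2 fold change 1.27 with SE 0.19; adjusted p = 0.00225 by limma), on chromosome 14, 116925315 to 117976544, plus strand (ENSMUSG00000058571.10). With the decidua covariate described later its log2 fold change was 1.04 and the call was lost (adjusted p = 0.224).

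Gpc1, a widely expressed glypican, rose by less. It had 5101, 3418, 2724 and 3147 scaled counts in mutants 1, 2, 4 and 5, against 2443, 1889, 2449 and 2404 in WT 1, 2, 4 and 5. No mutant value reached down to the WT values, and mutant 1 was far above the other mutants. The rise was 1.53-fold (log2 fold change 0.61 with SE 0.18; adjusted p = 0.0484 by limma), close to the threshold. The call was lost in 11 of 21 alternatives, among them no filter (adjusted p = 0.0504), median centring (0.0857) and the omission of mutant 2 or 5 or of any 1 WT embryo (0.0706 to 0.112), and it held with edgeR (0.0415) and DESeq2 (0.00495). The gene (ENSMUSG00000034220.7, chromosome 1, 92831645 to 92860779) shares 977 exon bases with the opposite-strand gene Ankmy1, which had at most 8.0 scaled counts in any library.

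Gpc3, which restrains growth and is lost in the human overgrowth disorder Simpson-Golabi-Behmel syndrome, was by far the most abundant member. It had 45940, 40346, 33372 and 33280 scaled counts in mutants 1, 2, 4 and 5, against 28124, 31622, 27943 and 31136 in WT 1, 2, 4 and 5. The genotypes did not overlap, and mutants 4 and 5 were only slightly above WT 2. The log2 fold change was 0.35 (SE 0.11, 95% interval 0.11 to 0.59, limma adjusted p = 0.0535), which did not pass. It passed, higher, with edgeR (adjusted p = 0.0474), DESeq2 (0.013), quantile normalization (0.0141) and array weights (0.0363), and without mutant 4 (0.0381), mutant 5 (0.0431) or both (0.00879).

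Gpc4, a glypican that promotes convergent extension in zebrafish through non-canonical WNT signalling, leaned the other way. It had 1780, 2644, 2793 and 3023 scaled counts in mutants 1, 2, 4 and 5, against 4056, 3402, 3811 and 2880 in WT 1, 2, 4 and 5. Mutant 5 overlapped WT 5, and mutant 1 was the lowest of all 8 embryos. The log2 fold change was -0.48 (SE 0.17, 95% interval -0.87 to -0.10, limma adjusted p = 0.0904). It passed, lower, with DESeq2 (adjusted p = 0.0388, where 22.0% of all tested genes were called) and with median centring (0.0407, where 16.8% were). Gpc3 and Gpc4 are neighbours on chromosome X (52272426 to 52613950 and 52053021 to 52165252, both on the minus strand). In the 6 Y-bearing libraries their log2 fold changes were 0.43 and -0.65 (adjusted p = 0.121 and 0.12).

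Gpc2 and Gpc5 were low in both genotypes. Gpc2, a glypican of developing neurons, had 107 ± 30.6 scaled counts in mutants and 106 ± 32.3 in WT (log2 fold change 0.01, 95% interval -0.62 to 0.64, limma adjusted p = 0.988), and the sign turned with median centring (-0.08). Its exons share 2376 bases with the same-strand gene Gm43720, so its count is uncertain. Gpc5 did not reach the filter: 22 reads were counted in all mutant libraries together and 30 in WT, or 6.46, 6.45, 7.53 and 1.14 scaled counts in mutants 1, 2, 4 and 5, against 6.49, 5.68, 8.66 and 8.29 in WT 1, 2, 4 and 5. No difference in Gpc5 was detectable at this depth.

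**Figure D2:**
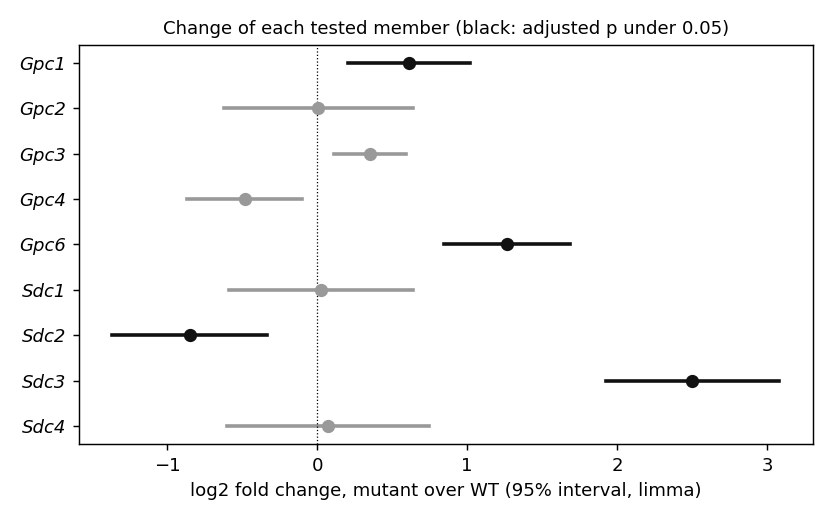
Log2 fold change of mutant over WT (horizontal axis) for the 9 tested members with the 95% interval from limma, black where the adjusted p was under 0.05 and grey otherwise. Sdc3 lies farthest from 0 at 2.50, followed by Gpc6 at 1.27, and Sdc2 lies at -0.85.

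Per kilobase of exon, the order of levels differed little between the genotypes at its ends. Gpc3 was highest, at 14214 ± 2272 scaled counts per kb in mutants and 11043 ± 722 in WT, and Gpc5 was lowest, at 1.21 ± 0.647 in mutants and 1.64 ± 0.32 in WT. In mutants the order below Gpc3 was Sdc1, Gpc4, Gpc1, Sdc4, Sdc3, Gpc6, Sdc2 and Gpc2, and neighbours overlapped from Sdc1 to Sdc4 and from Sdc3 to Sdc2. In WT it was Gpc4, Sdc1, Sdc4, Gpc1, Sdc2, Gpc6, Sdc3 and Gpc2, and neighbours overlapped from Gpc4 to Gpc1 and between Sdc3 and Gpc2. Sdc3 thus stood at 177 ± 73.3 scaled counts per kb in mutants, in the range of Gpc6 and Sdc2, and at 29.8 ± 5.02 in WT, in the range of Gpc2.

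The make-up of each family followed. Among the syndecans summed per kilobase, Sdc3 made up 9.76% ± 4.26 in mutants and 1.77% ± 0.553 in WT, and Sdc2 made up 7.48% ± 2.57 in mutants and 13.9% ± 3.19 in WT. Sdc1 was the largest share in every embryo, at 43.9% to 59.2% in mutants and 49.4% to 58.9% in WT. The summed level of the 4 syndecans was 1898 ± 484 scaled counts per kb in mutants and 1804 ± 541 in WT. Among the glypicans Gpc3 made up 86.8% to 90.1% in mutants and 83.3% to 87.7% in WT, Gpc4 made up 6.23% ± 1.99 in mutants and 10.4% ± 1.84 in WT, and Gpc6 made up 0.91% ± 0.242 in mutants and 0.46% ± 0.0877 in WT. These shares follow from the levels above and were not tested again.

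**Figure D3:**
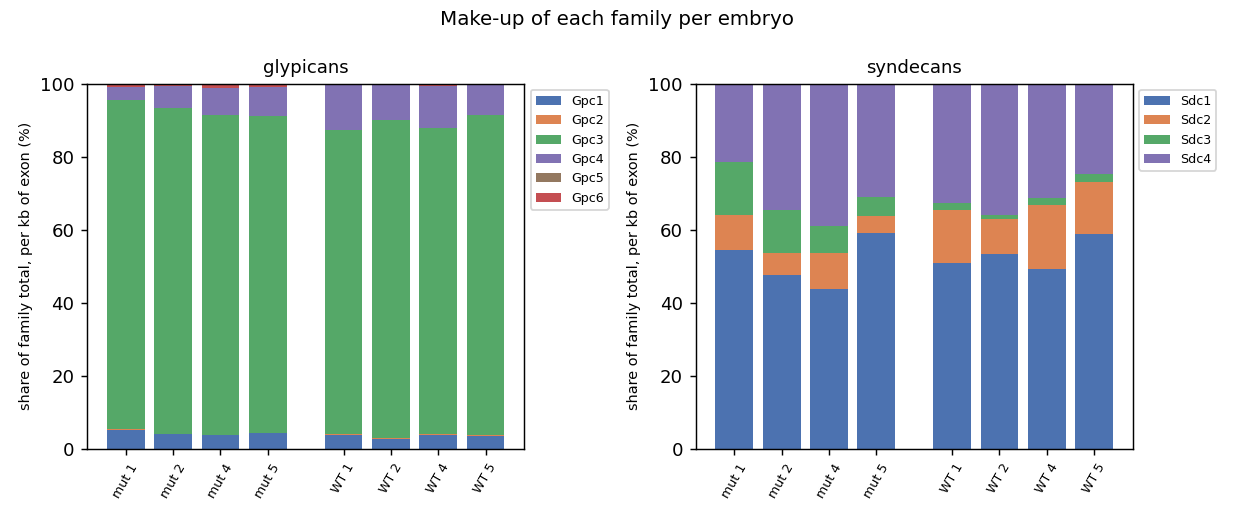
Share of each member in the summed scaled counts per kb of its family (vertical axis, %), 1 stacked bar per embryo, the 4 mutants left of the 4 WT embryos. The Sdc3 band is 5.21% to 14.6% in mutants and 0.955% to 2.15% in WT, and Gpc3 fills at least 83.3% of every glypican bar.

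Related members were also compared within each library, which asks whether their changes differ. Of 7 such pairs, 5 had both genes past the filter. The log2 ratio of Gpc4 to its neighbour Gpc3 averaged -3.91 ± 0.554 in mutants and -3.08 ± 0.299 in WT, a difference of -0.84. The ratio of Gpc4 to Gpc6, of the same subfamily, averaged 1.47 ± 0.603 in mutants and 3.22 ± 0.194 in WT, a difference of -1.75. That of Gpc1 to Gpc2 averaged 5.06 ± 0.18 in mutants and 4.46 ± 0.317 in WT, a difference of 0.60. That of Sdc1 to Sdc3, sister syndecans, averaged 1.84 ± 0.736 in mutants and 4.32 ± 0.555 in WT, a difference of -2.47. For each of these 4 pairs no mutant value overlapped a WT value (exact two-sided permutation test, p = 0.0286, the smallest that 4 against 4 embryos allow, and 0.0357 adjusted over the 5 pairs). The share of other gene pairs without overlap was not computed, and 22.4% of single tested genes were without overlap. The ratios reuse the values above and are not separate evidence. For Sdc1 to Sdc3 the difference mostly restates the Sdc3 rise (log2 fold changes 0.03 for Sdc1 and 2.50 for Sdc3). The ratio of Sdc2 to Sdc4 averaged -1.64 ± 0.701 in mutants and -0.71 ± 0.5 in WT and did not pass (exact permutation p = 0.0857, adjusted 0.0857). For Gpc4 to Gpc3 the gap was narrow, with -3.46 in mutant 5 and -3.43 in WT 5.

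**Figure D4:**
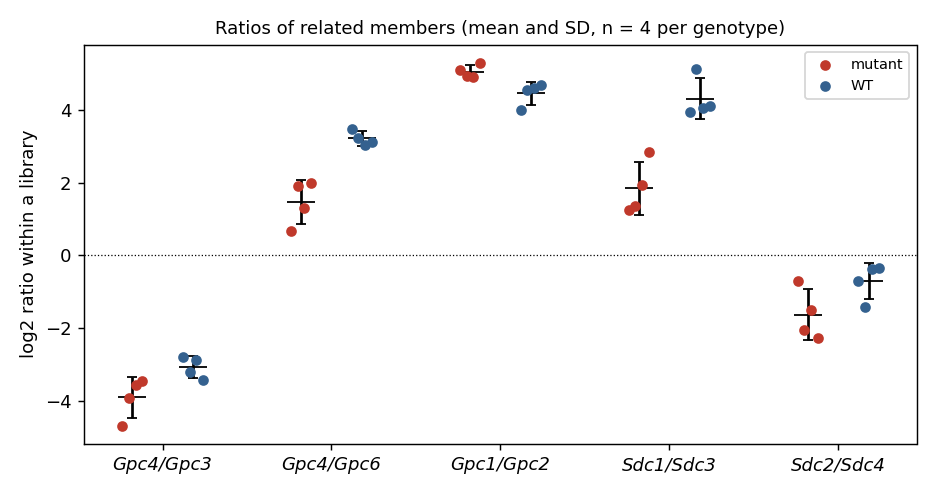
Log2 ratio of 2 related members within each library (vertical axis) for 5 pairs, mutants in red left of WT in blue, with black bars for the mean ± SD of 4 embryos. Mutant and WT points do not overlap for the first 4 pairs, most widely apart for Sdc1/Sdc3 (mean difference -2.47), and they overlap for Sdc2/Sdc4.

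Genes that make, edit and use the chains were read alongside. Of 52 tested genes in 6 lists, 11 were higher and 2 lower in the mutants, or 25.0% against 15.6% of all genes tested. Among the 11, Hs3st3a1 and Sdcbp2 reached the filter only through the mutants. The share thus depends in part on the group where they are high, and it was not tested. The median log2 fold change of the 52 was 0.24.

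Genes of precursor supply were called at about the background share. Of 13 tested genes for precursors and the linker to the core protein, 2 were higher and none lower (limma; median 0.17; background 15.6%). Papss1, which makes the sulfate donor, had 4661 ± 369 scaled counts in mutants and 3039 ± 322.5 in WT (log2 fold change 0.62 with SE 0.09; adjusted p = 0.00225 by limma). Ugdh, which makes the UDP-glucuronic acid used in the chain, had 6347 ± 1100 in mutants and 4326 ± 312 in WT (log2 fold change 0.54, limma adjusted p = 0.0129), a call lost in the 6 Y-bearing libraries (0.075). Of the 5 polymerisation genes, 0 passed with limma, where 1 had an unadjusted p under 0.05. With edgeR 0 passed, and with DESeq2, which called 22.0% of all tested genes, 1 passed. Ext2, a subunit of the chain polymerase, came nearest, with 5056 ± 567 in mutants and 4111 ± 343 in WT (limma adjusted p = 0.0693), and it passed, higher, with DESeq2 (0.0263). Extl2 had 1163 ± 160 in mutants and 1035 ± 60.4 in WT (limma adjusted p = 0.387), and Ext1, the other subunit, 2917 ± 739 in mutants and 2556 ± 287 in WT.

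Sulfation genes moved in both directions. Of 10 tested, 2 were higher and 1 lower with limma (median 0.17), 4 were called with edgeR and 5 with DESeq2, each including these 3. Over all tested genes limma and edgeR each called 15.6% and DESeq2 called 22.0%. Both genes higher with limma encode 3-O-sulfotransferases. Hs3st3b1 had 1634 ± 285 scaled counts in mutants and 688 ± 182 in WT (log2 fold change 1.27 with SE 0.21, limma adjusted p = 0.00429). Hs3st3a1, at low level, had 35.6 ± 11.6 in mutants and 5.58 ± 2.78 in WT (limma adjusted p = 0.00401). It reached the filter only through the mutants (23.9 to 49.1, against 3.46 to 9.47 in WT). Its place in the count thus depends on the group where it is high. Hs6st1, a 6-O-sulfotransferase, fell to 1729 ± 259 in mutants, against 2882 ± 319 in WT (log2 fold change -0.74 with SE 0.12; adjusted p = 0.00368 by limma). Another 3-O-sulfotransferase gene, Hs3st5, did not reach the filter and was singled out after its values were seen: no read was counted in the 4 mutant libraries and 62 in the 4 WT libraries. Its WT values were 8.35 to 19.9 scaled counts, and it is not in the count above. Hs3st1 had 86.2 to 271 scaled counts in mutants and 125 to 1582 in WT (log2 fold change -2.03, limma adjusted p = 0.0903), and it was called lower with edgeR (0.0378) and DESeq2 (0.00718). The N-sulfotransferases Ndst1 and Ndst2, the epimerase gene Glce and Hs2st1 did not pass with limma (adjusted p 0.0516 to 0.922), and Glce, with a log2 fold change of 0.26, was called higher with DESeq2 (0.00989).

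Of 11 tested genes for trimming and release, 3 were higher and none lower (limma, median 0.36, against 8.03% higher and 7.55% lower over all genes tested). Notum, an enzyme that inactivates WNT ligands and binds glypicans, had 5737, 3226, 1548 and 1910 scaled counts in mutants 1, 2, 4 and 5, against 23.2, 11.4, 22.5 and 47.4 in WT 1, 2, 4 and 5 (limma adjusted p = 7.65e-05). It was highest in mutant 1 and then in mutant 2, as were Sdc3, Gpc1, Gpc3 and Nrp1, so this trait is not particular to Sdc3. Without strand, the reads of Notum cannot be told from those of its antisense partner Notumos. Pcsk5, a proprotein convertase, had 837, 273.5, 1758 and 1278 in mutants 1, 2, 4 and 5 and 55.6 to 158 in WT (limma adjusted p = 0.00629), a call lost in the 6 Y-bearing libraries (0.0572). Mmp14, a membrane metalloproteinase that cleaves syndecan-1, had 2667 ± 702 in mutants and 1487 ± 348 in WT (limma adjusted p = 0.0236), a call lost without WT 2 (0.06), WT 5 (0.0633) or mutants 4 and 5 (0.0668) and in the 6 Y-bearing libraries (0.178). The sulfatase genes Sulf1 and Sulf2, whose products remove 6-O-sulfate at the cell surface, did not pass (adjusted p = 0.787 and 0.235).

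Of 7 tested cytoplasmic partners of the syndecans, 2 were higher and none lower (limma, median 0.56, against 8.03% higher and 7.55% lower over all genes tested). Sdcbp2, a relative of the syndecan-binding protein syntenin, had 52.4 ± 24.1 scaled counts in mutants and 8.84 ± 5.24 in WT (limma adjusted p = 0.0104), a call lost without mutants 4 and 5 (0.0981) and in the 6 Y-bearing libraries (0.075). Its WT values were 3.46 to 15.8, so it too reached the filter through the mutants. Gipc1, which binds the syndecan-4 tail, had 3471 ± 331 in mutants and 2596 ± 390.5 in WT (limma adjusted p = 0.0358), a call lost with median centring (0.0695) and without any 1 library other than WT 4 or WT 5 (0.0539 to 0.099), without mutants 4 and 5 (0.138) and in the 6 Y-bearing libraries (0.142). Syntenin itself, Sdcbp, had 7550 ± 1187 in mutants and 6126 ± 390 in WT (limma adjusted p = 0.0979).

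Of 6 other proteins that carry heparan sulfate, 2 were higher and 1 lower (limma, median 0.21, against 8.03% higher and 7.55% lower over all genes tested). Nrp1, a semaphorin and VEGF coreceptor, had 4547, 3239, 2945 and 2894 scaled counts in mutants 1, 2, 4 and 5, against 344, 319, 505 and 328 in WT 1, 2, 4 and 5. It rose 9.09-fold (log2 fold change 3.18 with SE 0.19; adjusted p = 2.91e-05 by limma). Cd44, a hyaluronan receptor, had 268 ± 141 in mutants and 72.1 ± 36.3 in WT (limma adjusted p = 0.0153). Col18a1, a basement membrane collagen, had 9119, 4609, 3931 and 4319 in mutants 1, 2, 4 and 5 and 8985 to 10575 in WT (log2 fold change -0.90, limma adjusted p = 0.0296). Mutant 1 lay within the WT range of Col18a1, and the call was lost without any 1 library other than mutant 1 (adjusted p 0.0541 to 0.0792). The Col18a1 call was also lost without mutants 4 and 5 (limma adjusted p = 0.19) and in the 6 Y-bearing libraries (0.123). Perlecan (Hspg2) and agrin (Agrn) did not pass (adjusted p = 0.327 and 0.872).

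**Figure D5:**
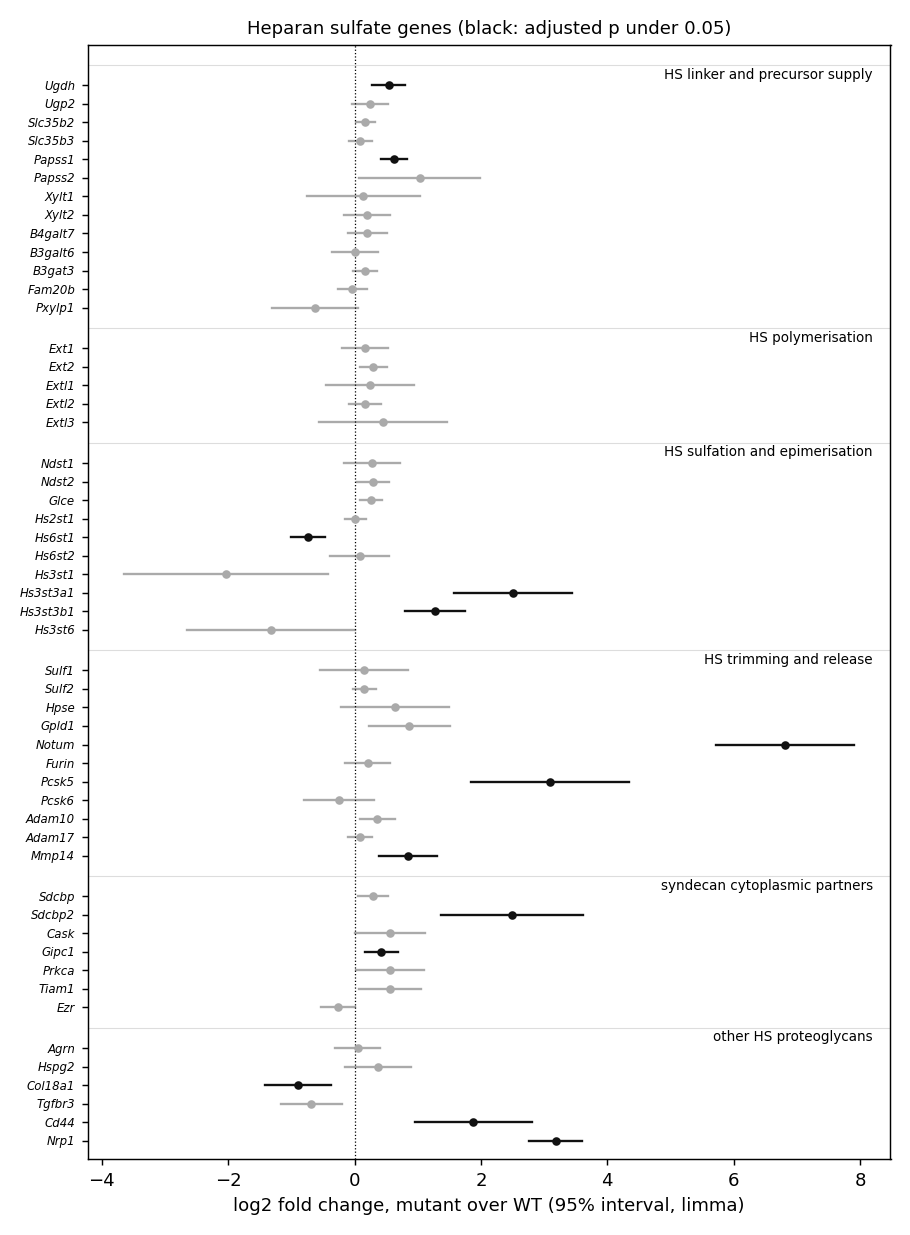
Log2 fold change of mutant over WT (horizontal axis) with 95% intervals from limma for 52 tested genes in 6 lists of heparan sulfate synthesis, sulfation, trimming, syndecan partners and other proteoglycans, black where the adjusted p was under 0.05. Notum lies farthest right at 6.82, the black points to the left of 0 are Hs6st1 and Col18a1, and no polymerisation gene is black.

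The tested genes nearest to each called member in pattern were found by the root mean square distance of gene-centred log2 values over the 8 libraries, among 13576 genes. For Sdc3 they were Msx2, a BMP-responsive homeobox gene (distance 0.134), Nrp2, a semaphorin coreceptor (0.166), and Tnfrsf19, a WNT target (0.221). For Gpc6 they were Smarca2 (0.115), Maged2 (0.122) and Kcnip3 (0.132). For Gpc1 they were Ccnjl (0.087), Arhgap29 (0.095) and Tmem246 (0.099), and for Sdc2 Parp10 (0.166), Sms (0.179) and Pvrl1 (0.185). These distances describe 8 embryos whose largest common difference is genotype.

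Marker genes of other cell types moved with genotype as well. The 7 epiblast markers summed to 6392 to 9964 scaled counts in mutants and 36287 to 39373 in WT, and all 7 were lower. The 8 mesoderm markers summed to 19420 to 32287 in mutants and 8105 to 9871 in WT, and 4 were higher (Tbx6, Msgn1, Kdr and Hand1). Hand1, which the trophoblast list also holds, made up 33.4% to 55.8% of that sum in mutants and 17.2% to 55.6% in WT, and the other 7 markers summed to 12934 to 14274 in mutants and 4241 to 7656 in WT. The WT embryos were not alike. WT 2 was far below the other WT embryos in T (130 against 846 to 1133), Mesp1 (5.68 against 658 to 974), Tbx6 (6.63 against 58.0 to 99.4) and Kdr (41.7 against 388 to 700). It was the highest WT embryo in Hand1 (5301 against 1592 to 2681). The summed visceral endoderm markers overlapped, at 111402 to 162346 in mutants and 129048 to 152739 in WT, though 2 of the 8, Afp and Cer1, were lower. The sums for extraembryonic ectoderm and trophoblast overlapped too, at 13791 to 25310 in mutants and 8236 to 23873 in WT, with 2 of 7 tested higher, Gata3 and Hand1. Hand1 made up 36.4% to 86.7% of this sum in mutants and 19.3% to 22.6% in WT. Without Hand1 the sum was 2765 to 16092 in mutants and 6644 to 18572.5 in WT. Tfap2c of this list had 1296, 6726, 3524 and 8956 in mutants 1, 2, 4 and 5, and 4348 to 6473 in WT. The sums for the parietal endoderm lay at 19702 to 26520 in mutants and 18930 to 63606 in WT, mostly from Lamb1 and Sparc. Thbd of the same list had 28.0, 8.29, 229 and 591 in mutants 1, 2, 4 and 5, and 52.1 to 2197 in WT. The sums therefore do not show that each compartment was present in every embryo. The 6 maternal immune markers summed to 80.8 to 1104 in mutants and 108 to 1063 in WT.

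Maternal decidua markers were higher in the mutants. The 12 markers summed to 5873 to 53810 scaled counts in mutants and 629 to 2359 in WT, and 8 of 11 tested were higher. None was at 0 in all libraries. Prl8a2, a decidual prolactin, had 135, 479, 6283 and 6056 in mutants 1, 2, 4 and 5, against 1129, 793, 21.7 and 79.3 in WT 1, 2, 4 and 5. It did not pass (limma adjusted p = 0.299). The whole list summed to 18633 in mutant 1 and 5873 in mutant 2, above every WT embryo. Leaving out mutants 4 and 5 therefore does not remove the difference in this sum. In mutants 1 and 2 Des had 7413 and 704 and Col1a1 had 7837 and 3421, most of the sum. Cryab (192 and 355, against 84.1 to 573 in WT) and Dcn (20.5 and 8.29, against 10.7 to 40.8) were not above WT there. Neither passed (limma adjusted p = 0.249 and 0.425). Pgr, Hoxa10 and Hoxa11 were above every WT embryo in both mutants. Embryonic mesenchyme also makes several of the 12, Col1a1, Col3a1, Des, Acta2 and Hand2 among them. Pgr, Hoxa10 and Hoxa11 were called higher too (limma adjusted p = 0.00524, 0.00475 and 0.00221). Hoxa10 had 297 to 5270 scaled counts in mutants and 62.7 to 92.8 in WT. The tissue of origin of these reads was not tested. Without mutants 4 and 5, in a limma fit that called 9.17% of all tested genes, Sdc3, Gpc6 and Gpc1 were still called higher, at log2 fold changes of 2.89, 1.23 and 0.87 (adjusted p = 0.00147, 0.0163 and 0.0261). Sdc2 was at -0.92 and lost its call (0.0977). The mean log2 level of the decidua list was 7.64 to 11.4 in mutants and 4.82 to 6.57 in WT, without overlap. As a covariate it therefore shares much of the genotype difference. A call kept or lost with it does not tell decidua from genotype. With this covariate, only Sdc3 among the 9 members passed (log2 fold change 3.06, limma adjusted p = 0.02), and 2.02% of all tested genes did. Gpc1 and Sdc2 lost their calls with larger log2 fold changes, 1.11 and -1.39 with the covariate against 0.61 and -0.85 without it, and with larger SEs, 0.31 and 0.42 against 0.18 and 0.23. Gpc6 had 1.04 with SE 0.37, against 1.27 with SE 0.19. Of the 13 list genes called, Hs3st3b1, Notum and Nrp1 passed with the covariate. Of the 10 that lost their call, 4 had a larger log2 fold change with it (Ugdh, Mmp14, Gipc1 and Cd44) and 6 a smaller one. Among those 6, Pcsk5 had 0.43 with the covariate against 3.09 without it and Sdcbp2 0.90 against 2.49, whereas Hs3st3a1 had 2.39 against 2.51. The part of the epiblast, mesoderm and decidua differences in the other members' changes was not tested.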

How the data were processed

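RNA of 8 whole embryos was amplified by 12 cycles of the SMART-Seq v4 protocol, per the labels' protocols; that kit copies polyadenylated RNA and does not mark strand. Per the submitters' processing notes the authors used cutadapt 1.6, STAR 2.5.0a, HTSeq 0.5.3 and DESeq (version not given in the sources used here) with mm10. The deposited values are a signal, namely counts per gene that the authors scaled with DESeq, per the file's own name. 100% of values were whole multiples of 1 step per library within 0.01 of a read, so reads were recovered by division. In each of the 12 pairs of libraries of 1 genotype, recovered reads differed beyond sampling noise (chi-square per degree of freedom 17.3 to 75.3 over genes with at least 10 reads in the pair), so none was counted as a duplicate. Counting intervals and floors would cover counting error only, since reads carry no molecular identifiers.

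limma 3.58.1 (R 4.3.3) fitted genotype to log2(scaled count + 1) for every gene past the filter (trended prior, two-sided, Benjamini-Hochberg over 15600 genes, threshold 0.05), and the script was tested on simulated data. Folds are 2 to the power of the log2 fold change and understate low genes. edgeR 4.0.16 and DESeq2 1.42.0 ran on recovered reads as alternatives. Ratios were tested by exact permutation in SciPy 1.17.1. Coordinates and exon lengths were taken from GENCODE M21 (GRCm38, equal to mm10) through gene IDs, found for 19878 of 19950 genes; the authors' annotation release may differ.

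The members, lists and alternatives were chosen with earlier results of these data known. Named genes are all 10 members, Axin1 and Axin2, up to 4 called genes per direction from each list by smallest p (the 2 smallest where none was called), and the 3 nearest genes to each called member. Other list genes complete small counts and were picked once values were known.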

Additional observations from a re-analysis of the deposited data

Results flagged for a closer look

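In 78 groups of 4 embryos (each named gene in each genotype), 9 held a highest or lowest value set apart from the other 3 by Dixon's 95% criterion, where chance marks about 1 group in 20. Gpc1 was low in WT 2, at 1888.79 scaled counts against 2404 to 2449 in the other WT embryos, and without WT 2 its log2 fold change was 0.52 (limma adjusted p = 0.112). Sdc2 was low in WT 5, at 691.33 against 882 to 915. Gpc5 was low in mutant 5, at 1.14 against 6.45 to 7.53, a difference of a few reads. Axin1 was low in WT 4, at 2962.57 against 4884 to 5274, and Axin2 was high in mutant 1, at 538.64 against 303 to 335. In mutant 1 Mmp14 stood high, at 3713.38 against 2210 to 2372, and so did Col18a1, at 9119.18 against 3931 to 4609. In WT 4 Nrp1 was high, at 505.02 against 319 to 344, and so was Sms, at 1491.68 against 1172 to 1187.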

How the results depend on the processing

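The Sdc3 call held in all 21 alternatives and the Gpc6 call in 20. Over all genes, 1253 were higher and 1178 lower; leaving out 1 library gave 853 to 1295 and 734 to 1144, the lower calls dropping to 734 without WT 1 and 743 without WT 4. The 6 Y-bearing libraries gave 528 and 493, the 6 without mutants 4 and 5 gave 707 and 723, and the decidua covariate 161 and 154. Among the members, 3 were higher and 1 lower; leaving out 1 library gave 2 to 4 higher and 0 to 1 lower, the covariate gave 1 and 0, median centring and DESeq2 gave 2 lower, and the 6 Y-bearing libraries or without mutants 4 and 5 gave 0 lower. The cause of these changes was not tested, beyond fewer samples where libraries were left out.

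The ratio differences kept their sign. Leaving out 1 library gave -0.99 to -0.58 for Gpc4/Gpc3, -1.92 to -1.49 for Gpc4/Gpc6, 0.45 to 0.68 for Gpc1/Gpc2, -2.81 to -2.20 for Sdc1/Sdc3 and -1.24 to -0.71 for Sdc2/Sdc4, and the 6 Y-bearing libraries gave -1.08, -1.78, 0.77 and -2.16 for the first 4. These smaller designs cannot pass the exact test at 0.05.

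The sign of genes that never passed turned in several fits. Gpc2 had log2 fold changes of -0.075 with median centring, -0.16 with quantile normalization, -0.22 with array weights, -0.0008 with edgeR, -0.25 in the 6 Y-bearing libraries and -0.16 to 0.20 when 1 library was left out. Sdc1 had -0.057 with median centring, -0.13 without mutants 4 and 5, -0.46 with the covariate and -0.20 to 0.22 when 1 library was left out. Sdc4 had -0.011, -0.26 and -0.87 in the same 3 fits and -0.14 to 0.33 when 1 library was left out.

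Replicate numbers did not pair the samples: same-numbered embryos deviated from their genotype means with correlations of -0.04, -0.17, -0.19 and -0.05. With the replicate block 910 genes were higher and 789 lower, and 2 members higher and 1 lower, Gpc1 losing its call (adjusted p = 0.0604); of the 13 called list genes Ugdh alone lost its call with the block (0.0507). DESeq2 called 5 genes of sulfation and 5 of trimming and release, against 3 each with limma. Over all tested genes DESeq2 called 22.0% and limma 15.6%.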
